A study of Homo sapiens with 6 samples.

Results

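Collagen genes were compared between H9 cells given UNC1999 and H9 cells given UNC2400. The members were all rows of the count table whose name reads COL, a number, A and a number, which took 44 of 53712 rows. By textbook collagen type, 11 encode fibrillar chains, 9 encode chains of basement membrane collagens and 24 encode other chains. H9 is an established human embryonic stem cell line, here cultured in RSeT, a medium that keeps human pluripotent cells in a naive-like state. UNC1999 cells were treated for 48 h with UNC1999 at 2.5 µM, a compound that blocks EZH2 and EZH1, the enzymes that methylate histone H3 in Polycomb repression. UNC2400 cells were treated for the same time and at the same concentration with UNC2400, a close analog that carries extra N-methyl groups and has little activity. Beginning 24 h after passage, both groups were also given DZNep at 10 nM, which blocks S-adenosylhomocysteine hydrolase, and TSA at 5 nM, which blocks histone deacetylases, so no group lacked these agents and no group lacked both UNC compounds. There were 3 poly(A)-selected RNA-seq libraries per compound, and the labels do not say whether these came from separate cultures. The p-values are therefore measured against a library spread that may be technical.

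Collagens are secreted or membrane-bound proteins in which 3 chains wind into a triple helix, built from repeats in which glycine recurs at regular steps. Fibrillar collagens such as types I, II and V pack into staggered fibrils, whereas type IV chains join at their ends into the sheet-like network of basement membranes, on which epithelia and early embryonic cells rest. Other types decorate fibrils, form beaded filaments, or span the plasma membrane. Chains are hydroxylated and folded in the endoplasmic reticulum, leave it in large transport carriers, are trimmed by proteases, and are crosslinked outside the cell.

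Total counts were 34481593, 33720474 and 33522942 in UNC1999 replicates 1 to 3, and 29699441, 42345448 and 30633829 in UNC2400 replicates 1 to 3. UNC1999 replicate 1 stood nearer to the UNC2400 libraries than the other UNC1999 libraries did on the first principal component of all genes, with a score of 20.1 against 39.3 and 41.4, while the UNC2400 libraries lay between -35.2 and -31.6. All 10 listed markers of pluripotent cells, POU5F1 and SOX2 among them, had at least 1 CPM in each group. Expression levels are CPM, read counts as a rate of the library total after scaling by trimmed mean of M values (TMM), and log2 differences are UNC1999 minus UNC2400.

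Collagen genes were broadly lower in UNC1999 cells. Of the 44 members, 38 had enough counts to be tested, and 34 of these fell and 0 rose by edgeR's quasi-likelihood test with Benjamini-Hochberg adjustment at 0.05. Over all 17596 genes tested, 25.9% fell and 26.8% rose, against 89.5% of the tested collagen genes that fell. The median log2 difference of the tested members was -1.0, with a range of -1.89 to 0.31, and that of all tested genes was 0.02. A fall of more than 2-fold was seen for 19 members, a class that held 2.61% of all genes tested. Of the 38 tested members, 32 lay within the lowest 10% of all tested genes by log2 difference.

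For the 34 called members, every UNC1999 library lay below every UNC2400 library, and for no member did every UNC1999 library lie above; over all tested genes these shares were 29.7% and 30.9%. No tested member had a positive difference at an unadjusted p under 0.05 (0 of 38), and DESeq2 and limma-voom also called 34 lower and 0 higher. Within the UNC1999 group, replicate 1 gave the highest value of the 3 libraries for 25 of the 34 lower members and the lowest for 5; among all genes that fell, replicate 1 was highest for 71.8%. Without this library the median of the tested members was -1.13, with 34 called lower. In bulk RNA, fewer cells of a type and less collagen RNA per cell cannot be told apart.

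**Figure D1:**
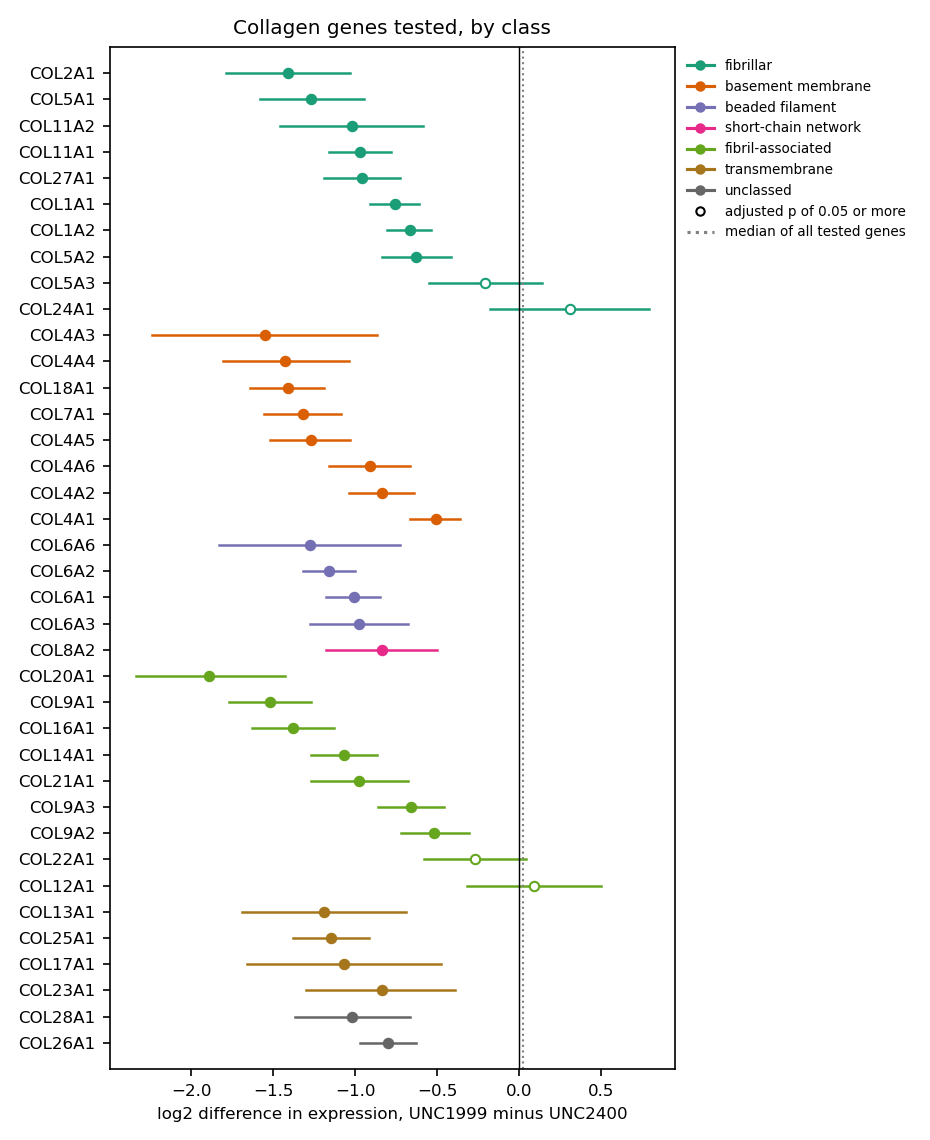
Log2 difference (UNC1999 minus UNC2400) of each of the 38 tested collagen genes, grouped by class; lines are 95% intervals, filled points passed the adjusted threshold of 0.05 and open points did not, and the dotted line is the median of all tested genes at 0.02. The 34 filled points all lie below 0, and the 4 open points are COL5A3, COL24A1, COL22A1 and COL12A1.

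The share of all counts that fell in collagen rows was 0.0756%, 0.0666% and 0.0627% in UNC1999 replicates 1 to 3, against 0.138%, 0.1225% and 0.1275% in UNC2400 replicates 1 to 3. The groups did not overlap, and the mean share was 0.0683% ± 0.00658 with UNC1999 and 0.129% ± 0.00791 with UNC2400 (SD, n = 3 each), or 47.2% lower. By class, the summed share of all counts with UNC1999 was 38.4% lower for fibrillar chains, 51.1% lower for basement membrane chains and 49.1% lower for the other chains. Fibrillar chains took 24.9%, 28.8% and 28.8% of collagen counts in UNC1999 libraries, against 23.6%, 23.1% and 23.7% in UNC2400 libraries. Basement membrane chains took 29.1%, 26.5% and 26.7% of collagen counts with UNC1999, against 30.0%, 29.4% and 29.6% with UNC2400. In both classes the groups were apart, in opposite directions. UNC1999 replicate 1 had the fibrillar and basement membrane shares nearest to UNC2400. These shares are given as values without a test.

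**Figure D2:**
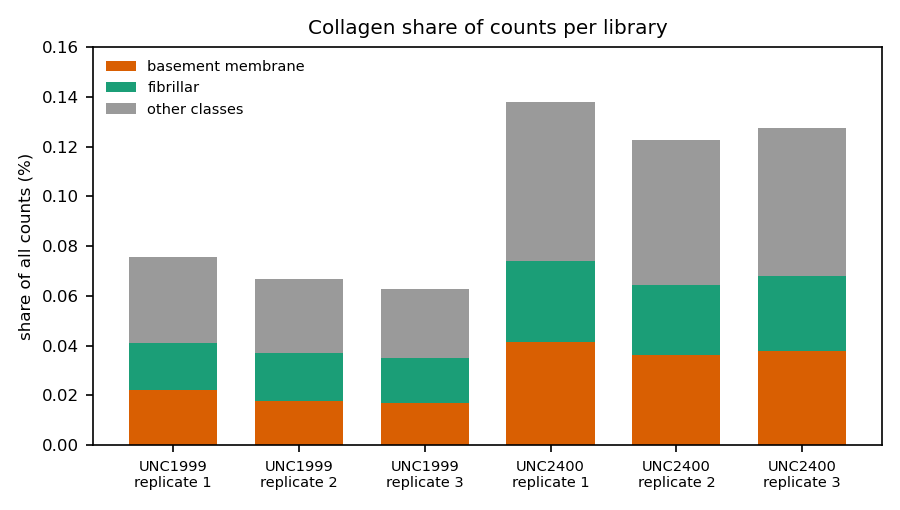
Share of all counts taken by collagen genes in each library, in percent, stacked by class; each bar is 1 library. The UNC1999 bars end between 0.0627% and 0.0756% and the UNC2400 bars between 0.1225% and 0.138%.

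Per kilobase of the longest coding transcript, the collagens with the highest levels were COL6A2, at 23.4 CPM per kb with UNC1999 and 52.2 with UNC2400, and COL6A1, at 20.55 and 41.45 CPM per kb. Both encode chains of type VI collagen. COL18A1 had 11.5 CPM per kb with UNC1999 and 30.5 with UNC2400, COL1A2 had 15.8 and 25.2, and COL14A1 had 8.63 and 18.1 CPM per kb. The order of COL18A1 and COL1A2 was thus reversed between the groups on this scale. The 6 members with the most counts, which were these 5 and COL4A1, held 64.9% ± 0.806 of collagen counts with UNC1999 and 67.0% ± 0.612 with UNC2400 (SD, n = 3 each). The 17 members with at least 10 CPM in UNC2400 all fell, 7 of them by more than 2-fold. This set was chosen by the UNC2400 level alone, which favours genes that are lower with UNC1999. Its falls are therefore not separate evidence. COL4A5, COL7A1, COL9A2, COL9A3 and COL25A1 averaged under 10 CPM with UNC1999, and the rest reached 10 CPM in both groups.

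**Figure D3:**
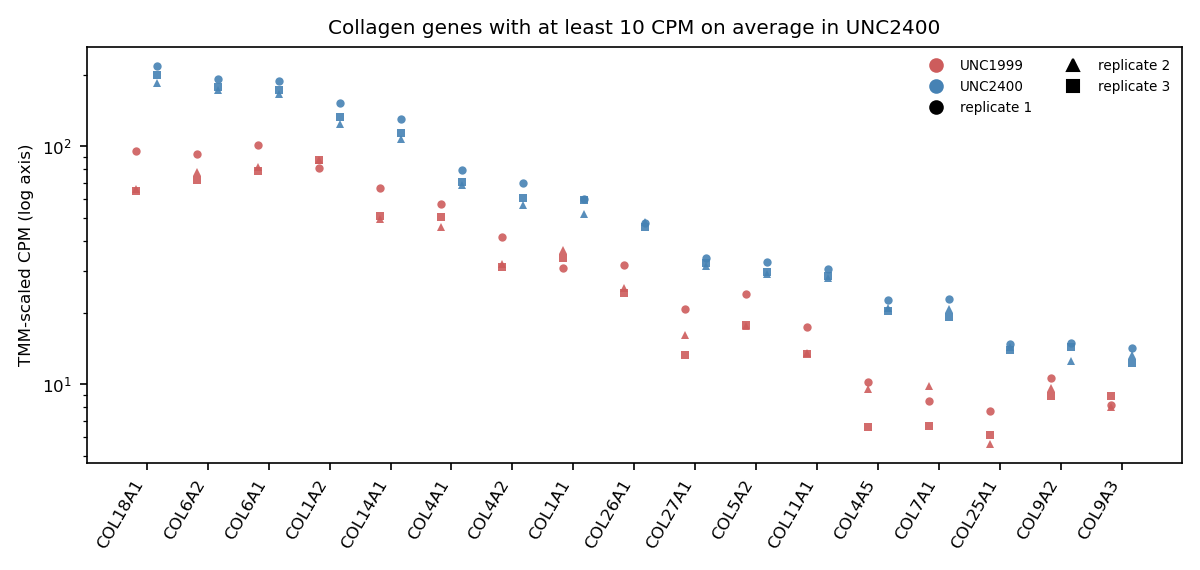
TMM-scaled CPM on a log axis for the 17 collagen genes with at least 10 CPM on average in UNC2400, ordered by that average; each symbol is 1 library, with UNC1999 left of UNC2400 for each gene. For every gene shown, the 3 UNC1999 libraries lie below the 3 UNC2400 libraries. The genes were chosen by their UNC2400 level alone.

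Among the 10 fibrillar members tested, 8 fell, 3 of them by more than 2-fold, and the median log2 difference was -0.86. Type I collagen, the main fibril of skin and bone, is made from the products of COL1A1 and COL1A2. COL1A1 had 30.9, 36.5 and 33.9 CPM in UNC1999 replicates 1 to 3, against 60.3, 51.9 and 59.35 CPM in UNC2400 replicates 1 to 3, a log2 difference of -0.76 ± 0.07 (SE; edgeR adjusted p = 2.07e-07). COL1A2 had 81.25, 87.55 and 87.7 CPM with UNC1999, against 151.9, 124.3 and 133.4 CPM with UNC2400, a difference of -0.67 ± 0.07 (adjusted p = 3.4e-07). For both genes UNC1999 replicate 1 was the lowest of its group rather than the highest. COL2A1, the type II chain of cartilage, had 2.205, 1.76 and 2.12 CPM with UNC1999 and 6.94, 4.98 and 4.31 CPM with UNC2400, the largest fall among fibrillar chains at -1.41 ± 0.18 (adjusted p = 6.46e-06).

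Type V and XI chains form thin fibrils that set the diameter of type I and II fibrils. COL5A1 had 5.22, 3.55 and 3.27 CPM with UNC1999 and 10.5, 8.57 and 10.0 CPM with UNC2400 (log2 difference -1.27 ± 0.15, adjusted p = 2.5e-06). COL5A2 had 24.0, 17.5 and 17.65 CPM with UNC1999 and 32.7, 29.1 and 29.7 CPM with UNC2400 (-0.63 ± 0.10, adjusted p = 4.58e-05). The third chain gene of the type, COL5A3, had overlapping groups, with 3.42, 3.72 and 4.66 CPM for UNC1999 and 3.47, 4.84 and 5.27 CPM for UNC2400; its interval of -0.55 to 0.14 leaves out a 2-fold change in either direction. COL11A1 fell by 0.97 ± 0.09 and COL11A2 by 1.02 ± 0.21 on the log2 scale (adjusted p = 2.08e-07 and 0.000503). COL27A1 and COL24A1 encode 2 further fibrillar chains, of which COL27A1 fell by 0.96 ± 0.11 (adjusted p = 1.67e-06). COL24A1 had the highest log2 difference of all tested members, 0.31 with a 95% interval of -0.18 to 0.79, from 1.42, 2.05 and 1.44 CPM with UNC1999 and 1.49, 1.46 and 0.994 CPM with UNC2400, and the groups overlapped.

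All 8 tested members of the basement membrane class fell, 5 of them by more than 2-fold, with a median log2 difference of -1.30 and a range of -1.55 to -0.51. These counts include COL4A3, at -1.55, which passed the low-count filter only through the UNC2400 libraries, where it was higher. The difference between the basement membrane class and the fibrillar class was not tested. COL18A1, whose C-terminal piece is endostatin, had 95.3, 66.2 and 64.9 CPM with UNC1999, against 218.2, 185.4 and 199.1 CPM with UNC2400. This was a log2 difference of -1.41 ± 0.11 (SE; edgeR adjusted p = 2.59e-08), or 37.6% of the UNC2400 level, and its share of collagen counts was 11.15% with UNC1999 and 15.2% with UNC2400. UNC1999 replicate 1 was well above the other UNC1999 libraries for this gene; without it the difference was -1.64. COL7A1, the chain of the anchoring fibrils beneath epithelia, had 8.47, 9.835 and 6.69 CPM with UNC1999 and 22.8, 20.7 and 19.2 CPM with UNC2400 (-1.32 ± 0.11, adjusted p = 8.33e-08).

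The type IV genes lie in 3 head-to-head pairs, so that the start of each gene is next to that of its partner on the opposite strand. All 6 genes fell, and the windows from 250 bases before to 50 bases after the start sites (RefSeq, GRCh38.p14) are shown for members of these pairs because the paired genes fell together. The capitals mark the bases that a gene's window shares with that of its partner, where they stand on the other strand. COL4A1 (chr13:110307108-110307407, minus strand) and COL4A2 (chr13:110307034-110307333, plus strand) start 127 bases apart and share 226 bases. COL4A3 (chr2:227164374-227164673, plus strand) starts 419 bases from COL4A4 and shares 82 bases with its window. COL4A5 (chrX:108439588-108439887, plus strand) starts 380 bases from COL4A6 and shares 121 bases with its window.
COL4A1: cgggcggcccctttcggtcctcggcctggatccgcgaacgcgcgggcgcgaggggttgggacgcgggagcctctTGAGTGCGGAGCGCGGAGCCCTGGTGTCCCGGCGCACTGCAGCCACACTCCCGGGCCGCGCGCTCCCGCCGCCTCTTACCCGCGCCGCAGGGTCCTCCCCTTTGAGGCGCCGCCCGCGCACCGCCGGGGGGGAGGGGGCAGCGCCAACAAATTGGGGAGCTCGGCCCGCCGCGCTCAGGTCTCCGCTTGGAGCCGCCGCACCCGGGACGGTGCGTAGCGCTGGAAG
COL4A2: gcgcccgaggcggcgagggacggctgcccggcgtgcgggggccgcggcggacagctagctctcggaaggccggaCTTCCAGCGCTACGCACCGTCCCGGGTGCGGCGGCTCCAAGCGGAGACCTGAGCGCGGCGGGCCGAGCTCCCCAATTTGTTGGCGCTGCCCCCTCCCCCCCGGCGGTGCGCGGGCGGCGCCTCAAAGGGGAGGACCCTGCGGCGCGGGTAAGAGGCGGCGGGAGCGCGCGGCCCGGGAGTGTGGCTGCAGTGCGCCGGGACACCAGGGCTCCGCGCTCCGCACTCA
COL4A3: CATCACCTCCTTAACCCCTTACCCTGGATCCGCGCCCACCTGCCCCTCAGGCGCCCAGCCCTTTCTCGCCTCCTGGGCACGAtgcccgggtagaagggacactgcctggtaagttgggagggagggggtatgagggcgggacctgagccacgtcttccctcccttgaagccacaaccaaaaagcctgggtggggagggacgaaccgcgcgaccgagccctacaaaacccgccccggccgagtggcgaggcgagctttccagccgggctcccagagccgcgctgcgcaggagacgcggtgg
COL4A5: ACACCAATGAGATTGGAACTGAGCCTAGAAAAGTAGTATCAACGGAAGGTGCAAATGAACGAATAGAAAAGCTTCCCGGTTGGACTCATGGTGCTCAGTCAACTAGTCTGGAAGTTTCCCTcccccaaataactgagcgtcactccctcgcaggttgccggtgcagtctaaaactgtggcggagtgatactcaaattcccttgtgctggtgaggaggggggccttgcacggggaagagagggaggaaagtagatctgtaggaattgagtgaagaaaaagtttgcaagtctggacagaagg

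COL4A1 and COL4A2 encode the chains found in nearly all basement membranes. COL4A1 had 57.2, 45.85 and 50.5 CPM with UNC1999, against 79.65, 68.6 and 71.05 CPM with UNC2400, the smallest fall of the class at -0.51 ± 0.07 (log2, SE; edgeR adjusted p = 1.87e-05). COL4A2 had 41.6, 31.95 and 31.0 CPM with UNC1999, against 70.0, 56.9 and 60.6 CPM with UNC2400, a difference of -0.84 ± 0.09 (adjusted p = 1.49e-06). In a fit with offsets for genomic span, exon length and GC content these differences were -0.24 (adjusted p = 0.00244) and -0.42 (adjusted p = 5.02e-05), still below 0, and over 15 alternatives their adjusted p reached at most 0.00244 and 5.14e-05. COL4A3 and COL4A4, together with COL4A5, form the network of the mature kidney filter. COL4A3 was near the limit of detection, with 0.406, 0.227 and 0.324 CPM in UNC1999 and 1.01, 0.790 and 1.06 CPM in UNC2400 (-1.55 ± 0.32, adjusted p = 0.000679), and it was the member that passed the low-count filter only through the UNC2400 libraries. COL4A4 had 1.42, 1.51 and 1.03 CPM with UNC1999 and 3.85, 3.23 and 3.645 CPM with UNC2400 (-1.43 ± 0.18, adjusted p = 6.22e-06). COL4A5 had 10.2, 9.49 and 6.60 CPM with UNC1999 and 22.7, 20.9 and 20.25 CPM with UNC2400 (-1.27 ± 0.12, adjusted p = 1.94e-07), and COL4A6 fell by 0.91 ± 0.12 (adjusted p = 6.03e-06). In none of the 6 did the groups overlap.

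Type VI collagen forms beaded filaments around cells. All 4 tested genes of this class fell, with a median of -1.08. COL6A1 had 101.2, 81.6 and 78.5 CPM with UNC1999, against 187.6, 165.8 and 173.5 CPM with UNC2400 (log2 difference -1.01 ± 0.08, SE; edgeR adjusted p = 3.09e-08). COL6A2 had 92.9, 78.0 and 72.0 CPM with UNC1999, against 192.6, 172.2 and 177.2 CPM with UNC2400 (-1.16 ± 0.07, adjusted p = 6.26e-09), the smallest p of any member. COL6A3, whose product joins these chains in the classical type VI molecule, was far lower in both groups, at 0.239 CPM per kb with UNC1999 and 0.473 with UNC2400, and fell by 0.98 ± 0.14. COL6A6 fell by 1.28 ± 0.26 (adjusted p = 0.000538). The start window of COL6A2 (chr21:46097862-46098161, plus strand; RefSeq, GRCh38.p14) is shown because this gene had the highest level per kilobase, with a TATA box sequence, TATAAA, in capitals.
COL6A2: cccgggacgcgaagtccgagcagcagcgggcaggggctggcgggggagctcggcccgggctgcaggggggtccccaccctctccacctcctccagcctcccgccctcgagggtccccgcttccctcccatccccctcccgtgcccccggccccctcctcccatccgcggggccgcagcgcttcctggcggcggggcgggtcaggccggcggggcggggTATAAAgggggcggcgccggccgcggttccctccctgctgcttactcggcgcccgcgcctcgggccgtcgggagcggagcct

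Start windows were found in RefSeq for 32 of the 44 members. On either strand, TATAAA was present for 7 of 32 collagen genes (21.9%) and for 14% of all 27305 genes with a window, CCAAT for 12 (37.5%) against 39.7%, and GGGCGG for 21 (65.6%) against 48.3%. CACGTG was found for 0 of 32, against 8.77% of all genes. None of these 4 sequences contains another. The median GC content of the windows was 63.7% for collagen genes and 58.7% for all genes. These matches describe letters in a window and are not evidence of a bound site.

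Fibril-associated collagens sit on the surface of other fibrils. Of 9 tested, 7 fell, 4 of them by more than 2-fold, with a median of -0.98. COL20A1 had the largest fall of all members, with 0.842, 0.938 and 1.18 CPM for UNC1999 and 3.30, 4.62 and 2.92 CPM for UNC2400 (-1.89 ± 0.22, SE; edgeR adjusted p = 1.94e-06). COL14A1, which binds type I fibrils, had 66.9, 49.4 and 51.1 CPM with UNC1999, against 130.9, 107.5 and 113.4 CPM with UNC2400 (-1.07 ± 0.09, adjusted p = 1.12e-07). COL9A1, COL9A2 and COL9A3 encode the chains of type IX collagen of cartilage and the eye. They fell by 1.52 ± 0.12, 0.52 ± 0.10 and 0.66 ± 0.09 on the log2 scale (adjusted p = 3.63e-08, 0.000248 and 1.65e-05). COL16A1 fell by 1.38 ± 0.12 and COL21A1 by 0.98 ± 0.14 (adjusted p = 1.01e-07 and 1.78e-05).

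Neither COL12A1 nor COL22A1 passed the test. COL12A1, a partner of type I fibrils, had 1.97, 2.93 and 2.39 CPM with UNC1999 and 2.74, 1.87 and 2.32 CPM with UNC2400, a log2 difference of 0.09 with a 95% interval of -0.32 to 0.50. COL22A1, found at tissue junctions, had 3.395, 3.58 and 3.57 CPM with UNC1999 and 3.51, 4.31 and 4.87 CPM with UNC2400, a difference of -0.27 with an interval of -0.58 to 0.04 (edgeR adjusted p = 0.13). For both genes the libraries of the groups overlapped. COL12A1 and COL24A1 were the tested members on the positive side of 0, while 36 lay below it.

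All 4 transmembrane collagen genes fell, with a median of -1.11. COL17A1, a hemidesmosome component of skin, had 0.609, 0.853 and 0.413 CPM with UNC1999 and 1.25, 1.46 and 1.23 CPM with UNC2400 (log2 difference -1.07 ± 0.28, SE; edgeR adjusted p = 0.00401). COL25A1, known from amyloid plaques, had 7.72, 5.60 and 6.10 CPM with UNC1999 and 14.8, 14.3 and 13.95 CPM with UNC2400 (-1.15 ± 0.11, adjusted p = 2.82e-07). COL13A1 fell by 1.19 ± 0.24 (adjusted p = 0.000448). COL23A1 had 2.18, 1.79 and 1.12 CPM with UNC1999 and 3.68, 2.83 and 2.68 CPM with UNC2400 (-0.84 ± 0.22, adjusted p = 0.00335); in the fit with offsets its difference was -0.32 and it was no longer called (adjusted p = 0.213, over 15 alternatives 1.38e-05 to 0.213). The network chain gene COL8A2, known from the cornea, fell by 0.84 ± 0.16 (adjusted p = 0.000297). COL26A1 and COL28A1, left outside the classes above, fell by 0.80 ± 0.08 and 1.02 ± 0.17 (adjusted p = 4.81e-07 and 7.62e-05).

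The 6 members below the low-count filter are given as counts summed over 3 libraries per group, with exact 95% intervals that cover counting error only. COL3A1, the type III chain of vessels and skin, had 14 counts with UNC1999 and 13 with UNC2400, a depth-adjusted ratio of 1.09 (0.474 to 2.51). COL10A1, a marker of hypertrophic cartilage, had 26 and 26 counts (ratio 1.01, 0.563 to 1.81). COL8A1 had 10 and 11 counts (0.918, 0.349 to 2.38), and COL6A5 had 7 and 6 counts (1.18, 0.339 to 4.24). No difference was detectable for these 4 genes at this depth. COL15A1, a basement membrane collagen related to COL18A1, had 9 counts with UNC1999 and 26 with UNC2400, a ratio of 0.349 (0.144 to 0.769), and an adjusted p of 0.0821 when edgeR was run without the filter. COL19A1 had 2 and 4 counts. In that fit of all 44 members, 34 were called lower and 0 higher. Of the 38 tested members, 37 reached the filter's cutoff of 0.297 CPM in every library of both groups. Of these 37, 33 were called lower in the fit with the filter.

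To see whether chains of the same collagen type moved in step, ratios of counts between 10 pairs of chain genes were taken within each library. Groups were compared with a two-sided exact permutation test, where 0.1 is the smallest p that 3 against 3 libraries allow; the adjusted value is then 0.167. The COL4A2 to COL4A1 ratio was 0.727, 0.697 and 0.614 in UNC1999 libraries, against 0.879, 0.829 and 0.854 in UNC2400 libraries. The COL6A2 to COL6A1 ratio was 0.917, 0.955 and 0.918 with UNC1999, against 1.03, 1.04 and 1.02 with UNC2400. The groups were apart for both (exact permutation p = 0.1 each), and lower with UNC1999.

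The COL5A1 to COL5A2 ratio was 0.218, 0.203 and 0.185 with UNC1999, against 0.320, 0.295 and 0.338 with UNC2400, and the COL9A1 to COL9A3 ratio was 0.399, 0.382 and 0.306 with UNC1999, against 0.610, 0.679 and 0.672 with UNC2400 (exact permutation p = 0.1 each). In the other direction, the COL5A3 to COL5A1 ratio was 0.656, 1.05 and 1.42 with UNC1999 and 0.331, 0.564 and 0.525 with UNC2400, and the COL4A6 to COL4A5 ratio was 0.507, 0.416 and 0.674 with UNC1999 and 0.381, 0.411 and 0.414 with UNC2400 (exact permutation p = 0.1 each). For the other 4 pairs the groups overlapped, among them COL1A1 to COL1A2, at 0.394 ± 0.0196 with UNC1999 and 0.420 ± 0.0238 with UNC2400 (SD, n = 3 each; exact permutation p = 0.2). None of the 10 ratios passed a threshold of 0.05, which this design cannot reach.

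**Figure D4:**
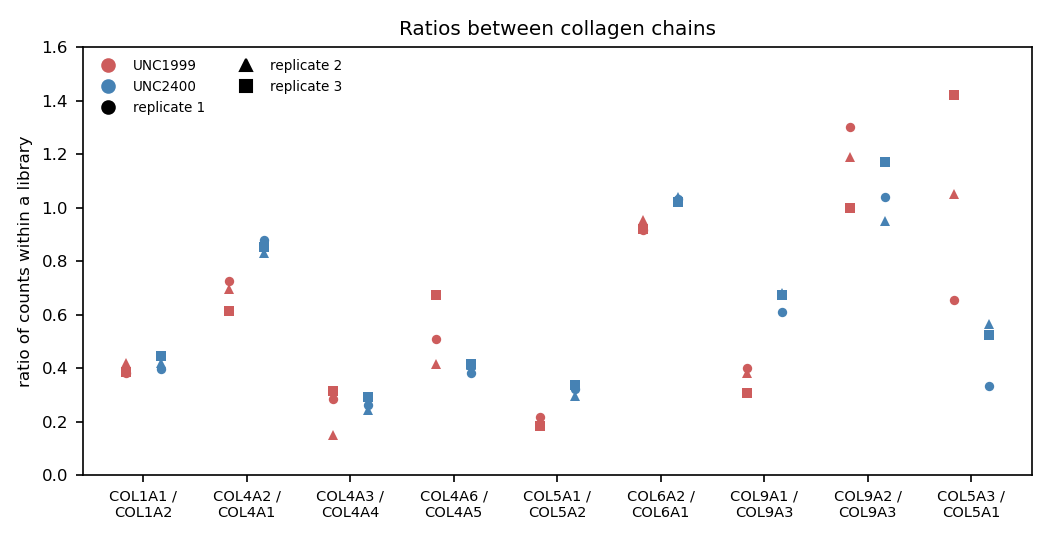
Ratio of counts between chain genes of the same collagen type in each library, for 9 of the 10 pairs (COL6A3 to COL6A1, at 0.0284 to 0.0312 in the UNC1999 libraries and 0.0287 to 0.0292 in the UNC2400 libraries, is left out); each symbol is 1 library, with UNC1999 left of UNC2400. The COL4A2 to COL4A1 ratio lies at 0.614 to 0.727 with UNC1999 and 0.829 to 0.879 with UNC2400.

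Collagen genes are long, and long genes were lower in UNC1999 libraries as a whole. The median genomic span in GENCODE release 29 was 136 kb for the tested collagens and 31.1 kb for all tested genes with a value. Of all tested genes under 40 kb, 15.6% fell, and their median log2 difference was 0.13; all 10 collagen genes of that size fell, with a median of -0.93. Between 40 and 120 kb, 36.7% of all genes fell, with a median of -0.08, as did 7 of 8 collagen genes, with a median of -1.33. Over 120 kb, 56.6% of all genes fell, with a median of -0.32, as did 17 of 20 collagen genes, with a median of -0.97. Across genes, which are not independent replicates, Pearson's r between log2 difference and log10 span was -0.35 over all genes and 0.13 over the 38 collagens.

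With offsets that take out the trend of all genes on span, exon length and GC content, 33 members were lower, all of them also lower without offsets, the median was -0.73, and 25.2% of all genes were lower. The log2 difference of 11 of the 34 lower members became more than 1.5 times smaller with these offsets, and all 11 span over 120 kb. They include COL14A1 at -0.70, COL5A1 at -0.83, COL27A1 at -0.56, COL25A1 at -0.65 and COL26A1 at -0.44. COL24A1, which spans 428 kb, was called higher with offsets, at 0.79 (edgeR adjusted p = 0.0103, over 14 alternatives 0.00484 to 0.749).

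**Figure D5:**
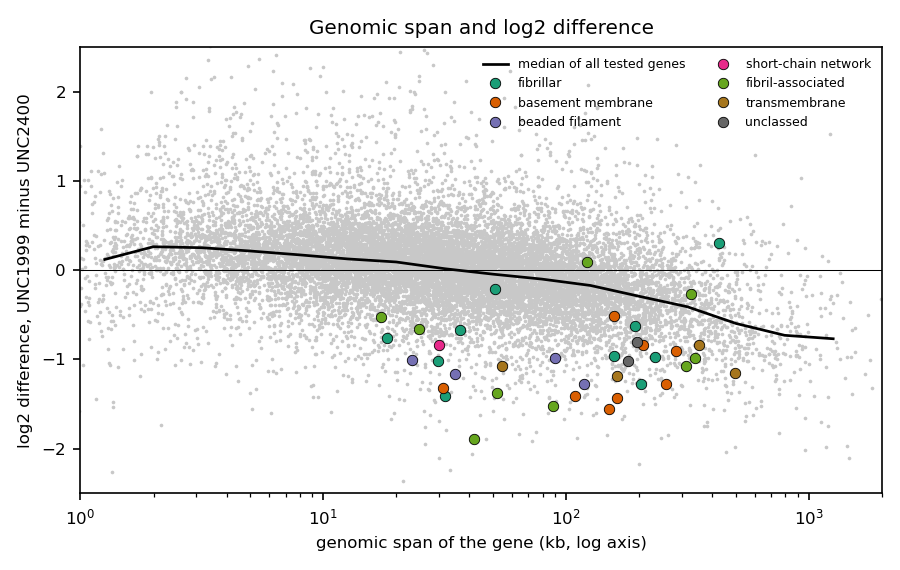
Log2 difference (UNC1999 minus UNC2400) against genomic span in kb on a log axis; grey points are tested genes, the black line is their median by span, and coloured points are the 38 tested collagen genes by class. The axes leave out 334 genes beyond 2.5 log2 units, under 1 kb or over 2000 kb; the collagens under 40 kb lie between -1.41 and -0.52, where the median of all genes is above 0.

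Genes that modify, carry, process, crosslink, bind and degrade collagen were taken as 6 lists. For reference, 25.9% of all tested genes fell and 26.8% rose, and no list was tested against these shares. The share that fell was 55% for chain modification and folding, 60% for secretion and 33.3% for propeptide processing. It was 42.9% for crosslinking, 36.4% for receptors and 16.7% for degradation. Of 20 tested genes for chain modification and folding, 11 fell and 3 rose, with a median log2 difference of -0.18, and 0 fell by more than 2-fold. The smallest p values belonged to the lysyl hydroxylase gene PLOD1 (-0.52 ± 0.06, SE; edgeR adjusted p = 1.23e-06), the prolyl 3-hydroxylase gene P3H1, listed in the files as LEPRE1 (-0.54 ± 0.06, adjusted p = 1.23e-06), the chaperone gene HSP90B1 (-0.51 ± 0.06, adjusted p = 4.94e-06) and P4HB, a subunit of prolyl 4-hydroxylase (-0.39 ± 0.05, adjusted p = 1.21e-05). Of 10 genes for secretion, 6 fell and 1 rose. SEC24D, the coat protein of procollagen carriers, had 58.4, 54.4 and 56.35 CPM with UNC1999, against 91.8, 93.5 and 102.0 CPM with UNC2400 (-0.76 ± 0.05, adjusted p = 1.6e-08). CREB3L2, a transcription factor that acts on secretory pathway genes, fell by 0.61 ± 0.06, and the coat genes SEC31A and SEC13 fell by 0.53 ± 0.06 and 0.40 ± 0.05.

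Outside the cell, 9 genes for propeptide processing were tested, of which 3 fell and 2 rose. The procollagen N-proteinase genes ADAMTS14 and ADAMTS2 fell by 1.29 ± 0.16 and 0.55 ± 0.08 (edgeR adjusted p = 4.32e-06 and 2.17e-05), the C-proteinase gene TLL1 fell by 1.43 ± 0.39, and PCOLCE, an enhancer of C-proteinase, rose by 0.31 ± 0.07. TLL1 was near the limit of detection, with 0.145, 0.227 and 0.295 CPM with UNC1999 and 0.660, 0.455 and 0.729 CPM with UNC2400. UNC1999 replicates 1 and 2 were under the filter's cutoff of 0.297 CPM, so TLL1 passed the filter only through the UNC2400 libraries. With the offsets, ADAMTS2 was no longer called, at -0.09 (adjusted p = 0.25, over 15 alternatives 7.59e-12 to 0.25). In that fit 2 genes of this list fell and 4 rose, so the balance of the list turned. Of 7 crosslinking genes, 3 fell and 1 rose. PXDN, which crosslinks type IV collagen, had 225.6, 188.8 and 195.1 CPM with UNC1999, against 357.2, 323.2 and 344.8 CPM with UNC2400 (-0.75 ± 0.07, adjusted p = 1.13e-07). The lysyl oxidase family genes went both ways, with LOXL1 at 0.58 ± 0.09, LOXL2 at -0.38 ± 0.07 and LOXL3 at -0.20 ± 0.07. LOXL2 was not called with the offsets (adjusted p = 0.146, over 15 alternatives 9.35e-07 to 0.146). LOXL3 was not called with DESeq2 (adjusted p = 0.0635) or in 4 fits that left out UNC1999 replicate 2 or 3 or UNC2400 replicate 1 or 3, and its adjusted p over 15 alternatives was 0.00239 to 0.109.

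Of 11 receptor genes, 4 fell and 1 rose. The endocytic collagen receptor gene MRC2 fell by 0.78 ± 0.07 on the log2 scale (edgeR adjusted p = 1.93e-07), the integrin genes ITGA1 and ITGB1 fell by 0.90 ± 0.11 and 0.35 ± 0.05, and the receptor kinase gene DDR1 fell by 0.23 ± 0.05. Of 12 genes for matrix degradation and its inhibitors, 6 rose and 2 fell, whereas with the offsets 4 rose and 5 fell. MMP14, a membrane-bound collagenase, had 47.2, 52.9 and 50.8 CPM with UNC1999, against 34.75, 32.6 and 31.4 CPM with UNC2400 (0.61 ± 0.06, adjusted p = 4.23e-07). TIMP3, an inhibitor of such proteases, had 6.88, 12.1 and 12.1 CPM with UNC1999, against 2.74, 3.04 and 2.95 CPM with UNC2400 (1.83 ± 0.18, adjusted p = 4.71e-07). MMP9, a gelatinase gene, rose by 0.65 ± 0.09, and MMP16 fell by 0.64 ± 0.06.

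Markers of pluripotent cells and of other cell types that make collagen were measured beside these results. Their counts stand beside 25.9% of all tested genes that fell and 26.8% that rose, and no marker list was tested against these shares. Of the 10 pluripotent markers, 5 fell by edgeR's test at an adjusted p under 0.05 and the other 5 did not pass it. POU5F1 (-0.44 ± 0.06, log2, SE) and DNMT3B (-1.06 ± 0.09) were among those that fell. With the offsets for span, exon length and GC content all 10 were called lower, beside 25.2% of all genes. In that fit SOX2 was at -0.37 and ZFP42 at -0.20 (edgeR adjusted p = 0.000151 and 0.00513). The summed level of the pluripotent markers was 7760 to 8880 CPM with UNC1999 and 10400 to 10600 CPM with UNC2400. Of 12 fibroblast markers other than collagens, 6 had at least 1 CPM with UNC1999 and 5 with UNC2400, and their summed level was 161 to 180 CPM with UNC1999 and 246 to 263 CPM with UNC2400. Most of that sum was THY1, FBLN1 and PDGFRA. Of the 8 that could be tested, 4 fell and 2 rose. Those that rose were PDGFRB (1.42 ± 0.57) and S100A4 (0.67 ± 0.20), which was not called with the offsets (adjusted p = 0.0905). PDGFRB had 13, 31 and 9 counts in UNC1999 replicates 1 to 3 and 1, 7 and 11 in UNC2400 replicates 1 to 3. Its groups thus overlapped, and its call was near the threshold (edgeR adjusted p = 0.044). DCN had 4 counts in all with UNC1999 and 1 with UNC2400, LUM 1 and 0, FAP 2 and 2, and PRRX1 8 and 8, so these fibroblast genes were near 0 in both groups.

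Chondrocyte markers summed to 213 to 265 CPM with UNC1999 and 345 to 350 CPM with UNC2400, and without CNMD, listed as LECT1, to 17.7 to 20.1 and 17.6 to 18.6 CPM. Of 6 tested, CNMD fell and SOX9 rose (1.08 ± 0.18, log2, SE). Endoderm and hypoblast markers summed to 42.3 to 49.1 CPM with UNC1999 and 57.2 to 58.7 CPM with UNC2400. Without PDGFRA, which is also in the fibroblast list, they summed to 18.2 to 20.8 CPM with UNC1999 and 17.3 to 18.1 CPM with UNC2400, so the direction turned. Of 6 tested, 2 fell (PDGFRA and AFP) and 2 rose, GATA4 by 1.37 ± 0.36 and CXCR4 by 1.04 ± 0.21. The other 4 were below the low-count filter and were not tested. Summed over the libraries of a group, GATA6 had 26 counts with UNC1999 and 3 with UNC2400. HNF4A had 20 and 4 counts, APOA1 17 and 6, and SOX17 4 and 2. Endothelial markers summed to 73.4 to 84.5 CPM with UNC1999 and 104 to 116 CPM with UNC2400, and without KDR to 5.26 to 7.07 and 12.8 to 14.2 CPM; all 4 tested fell, and CDH5 had 2 and 5 counts. The pluripotent, fibroblast and endothelial sums were thus lower with UNC1999 with and without the leading marker of each list, whereas the chondrocyte sum without CNMD overlapped between groups. The part of any of these in the collagen differences was not tested.

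In GENCODE release 29, an annotated gene overlaps 20 of the 44 members on the opposite strand, and the strand setting used in counting is not given in the sources used here, so reads of such pairs may not have been kept apart. Each of the 5 rows named as antisense to a collagen held at most 12 counts summed over all libraries. Of the protein-coding partners, SLC19A1, opposite COL18A1, had 21.1 ± 0.821 CPM with UNC1999 and 27.1 ± 0.805 CPM with UNC2400 (SD, n = 3 each), and TCFL5, opposite COL9A3, had 17.95 ± 1.10 and 16.8 ± 0.387 CPM. COL10A1 and COL19A1 lie opposite NT5DC1 and LMBRD1, and COL4A1 and COL4A2 overlap each other at their starts.

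In the authors' deposited table, 41 members are listed, of which 34 are lower and 0 higher at an adjusted p under 0.05. The sign of the log2 fold change in the authors' deposited table was the same as here for all 38 tested members, and for 97.9% of all genes in both.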

How the data were processed

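RNA was measured in 6 libraries, 3 per compound; groups and replicate numbers came from the sample labels. The authors deposited whole-number counts per gene name, without normalization, in a table whose name marks duplicates as removed without saying of what. Trim Galore 0.4.0, TopHat2 2.0.13, featureCounts, Subread 1.5.0 and build hg19 are named, without roles, per the submitters' processing notes; neither the annotation nor the strand setting is given in the sources used here. The authors' deposited log2 values, marked as batch-corrected, were not tested. Per the file headers, the authors' deposited table of the comparison has limma's column names for log2 fold change, p-value and test score.

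Counts were tested two-sided by edgeR's quasi-likelihood test (edgeR 4.0.16, R 4.3.3) with group as the only term, TMM factors and the default low-count filter, with Benjamini-Hochberg adjustment over 17596 genes and a threshold of 0.05. The fit was tested on simulated counts. A count of 0 allows 3 counts, or 0.0870 to 0.0895 CPM per UNC1999 library and 0.0708 to 0.101 CPM per UNC2400 library. Intervals and floors cover counting error alone, because reads that carry no molecular identifiers need not be separate molecules. Genomic span, joined exon length and GC content were looked up by gene name in GENCODE release 29 (88.4% of tested genes, all 38 tested collagens), and were used as gene properties only. Promoter windows came from RefSeq (GRCh38.p14). Alternatives were DESeq2 1.42.0, limma-voom (limma 3.58.1), scaling by RLE or by upper quartiles, no filter, a minimum count of 50, offsets by natural splines with 5 degrees of freedom on span, exon length and GC content, a replicate block, and leaving out each library.

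Every collagen row was accounted for and all tested members were named. Of each pathway list, up to 4 tested genes with the smallest p were named. The named markers, the sums without each list's leading marker and the overlapping partners were chosen after their values were seen. So were the counts of DCN, LUM, FAP, PRRX1, CDH5, GATA6, HNF4A, APOA1 and SOX17. The members and lists were chosen with earlier results of these data known.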

Additional observations from a re-analysis of the deposited data

How the results depend on the processing

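The count of 34 lower collagen genes was 34 when each library was left out in turn, and 31 to 34 under the other alternatives, with 31 at a minimum count of 50, which tests fewer genes. Lower calls over all tested genes ranged from 3951 to 5151 and higher calls from 3642 to 4925 when each library was left out. With the offsets for span, exon length and GC content, alone or with the replicate block, 1 collagen was called higher, which was 1 fibrillar gene, COL24A1. COL22A1 was above 0 with the offsets (0.23) and with the offsets and the block (0.24), and COL12A1 was below 0 without UNC1999 replicate 2 (-0.07) and without UNC2400 replicate 2 (-0.06), its range being -0.07 to 0.22 when each library was left out; none of these passed the threshold. The difference in collagen share of counts was -0.061 percentage points, -0.0646 to -0.0567 when each library was left out, and -0.0341 when counts were taken per kilobase of transcript. That for the fibrillar share of collagen counts was 4.04 percentage points, and 3.39 to 5.33 when each library was left out. Of 566 log2 differences of tested members under the alternatives, 558 kept their direction and side of the threshold. Same-numbered libraries of the groups correlated at 0.0237, 0.0839 and 0.124 in their deviations from the group means. Libraries with different numbers correlated at -0.136 to 0.0618. UNC2400 replicate 1 correlated best with UNC1999 replicate 2 (0.0618), whereas every other library correlated best with its own number. Correlations this small do not decide whether the numbers pair the samples. With the replicate block 34 collagens were lower and 0 higher. At this depth the 6 collagens below the filter could not be tested for moderate changes.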
